A study of Mus musculus with 2 samples.

Results

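Interferon-stimulated genes are genes whose transcripts a cell makes more of after an interferon has bound its receptor. The 37 examined here were chosen by gene symbol, from a list of antiviral effectors, RNA sensors, interferon-regulated transcription factors and interferon-induced GTPases, out of 24542 gene symbols in the deposited expression table. All 37 had reads in every library, and all 37 were among the 14466 genes abundant enough to be tested. The tissue was left ventricle of male C57BL/6 mice, taken 7 days after the proximal left anterior descending coronary artery had been ligated for good, which leaves an infarct in the wall it supplies. Per the labels only remote muscle was used, the scar and the zone beside it having been removed, and how clean the dissection was is not known. Mice without NRK-2, a muscle nicotinamide riboside kinase encoded by Nmrk2, were set against control littermates. Every mouse had the ligation, and no unoperated heart is among the samples, so the values compare genotypes after infarction and not infarcted with healthy muscle.

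The labels list 1 sample per genotype, but 3 numbered libraries of each genotype are in the table, referred to as control 1 to 3 and as the libraries labelled KO 1 to 3. Whether the 3 libraries of a genotype are from different mice is not stated. The p-values below therefore measure only the differences among these libraries, part of which may be technical. The libraries held 22377348 to 33086384 counted reads. Nmrk2 itself had 308, 270 and 118 reads in the control libraries, 9 in the library labelled KO 2 and 0 in that labelled KO 3, where a count of 0 allows up to 3 reads. The library labelled KO 1 had 808 Nmrk2 reads, against its label, so every direction below is given between labels, and the main results are also given without that library. Control 3 differed from the other control libraries too. It held 767 CPM of 6 summed B cell markers, where they held 10.1 and 8.96 CPM. The atrial light chain gene Myl7 had 4170, 3365 and 0 reads in control 1 to 3 and 3672, 41 and 6 in KO 1 to 3. The atrial genes Myl4 (4165, 3653 and 57 against 9137, 223 and 69 reads) and Sln (523, 392 and 0 against 736, 13 and 0) were split alike. Control 1, control 2 and the library labelled KO 1 thus held these atrial transcripts, although the tissue is given as left ventricle. Of the other atrial markers, Nppa and Dkk3 did not follow this split. Why the libraries differed so was not tested. For Cx3cr1, given below, the library labelled KO 1 lay with the other libraries labelled KO. CPM, the count scaled for depth, is the read count of a gene over the library total, after that total was multiplied by the library's TMM scaling factor. Markers of heart muscle were abundant in all 6 libraries, with 10 summed cardiomyocyte genes at 25309 to 86311 CPM.

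Type I interferons are secreted when a cell detects foreign or misplaced nucleic acid. They bind a receptor of the IFNAR1 and IFNAR2 chains, whose kinases act on transcription factors such as STAT2. STAT2 works with IRF9 in the complex ISGF3, which binds the interferon-stimulated response element (ISRE) in front of the target genes. Interferon gamma signals through another receptor and a different element called GAS, and is the stronger inducer of many guanylate-binding proteins and immunity-related GTPases. In the infarcted heart, macrophages that have taken up dead cells are a known source of type I interferon.

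The promoter windows of the genes show what the list has in common in sequence. RefSeq promoter windows (GRCm38.p6, the assembly called mm10) run from 250 bases before the start of a transcript to 50 bases after it, and 30 of the 37 genes matched one by symbol. The ISRE letters, GAAA followed after any 2 bases by another GAAA, were searched on both strands. They were present in the windows of 18 of these 30 genes, 60%, against 3.99% of the 27025 genes in the table and 3.44% of its 32851 windows. The GAS letters TTCNNNGAA, which read alike on both strands, were in those of 12 of 30 genes, 40%, against 9.55% of genes and 8.30% of windows. Both shares describe letters and not occupied sites. Mx1, Mx2, Oas2, Usp18, Dhx58, Zbp1 and Rtp4 were not matched. The first 4 sequences below belong to the most abundant genes with ISRE letters. The next 4 belong to genes with a higher level in the libraries labelled KO, and the last 3 to GTPase genes with a lower one in the main fit. These 7 were chosen after the values had been seen. None of them passed the test given below, and Ifit1, Oas1a and the 3 GTPase genes overlapped between genotypes. Oas3, which also holds ISRE letters, is not shown. Each is written along the strand of the gene, with the ISRE letters in capitals. A run in capitals that begins with TTTC is the same motif read on the opposite strand, and runs of over 10 capitals are overlapping matches.
Ifitm3, chr7:141010716-141010742, minus strand, from the first bases of the transcript: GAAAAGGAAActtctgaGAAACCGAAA
Bst2, chr8:71537572-71537617, minus strand: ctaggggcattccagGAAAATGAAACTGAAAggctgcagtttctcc
Gbp2, chr3:142620589-142620628, plus strand: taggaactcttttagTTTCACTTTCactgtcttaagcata
Irgm1, chr11:48871421-48871465, minus strand: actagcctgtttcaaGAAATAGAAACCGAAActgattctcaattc
Ifit3, chr19:34583358-34583431, plus strand: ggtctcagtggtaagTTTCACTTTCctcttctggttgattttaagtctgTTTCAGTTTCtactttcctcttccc
Ifit1, chr19:34640770-34640828, plus strand: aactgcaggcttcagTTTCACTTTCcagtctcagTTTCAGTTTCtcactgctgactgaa
Isg15, chr4:156200860-156200911, minus strand: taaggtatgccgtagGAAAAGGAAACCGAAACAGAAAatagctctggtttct
Oas1a, chr5:120907526-120907560, minus strand: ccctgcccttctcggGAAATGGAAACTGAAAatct
Gbp7, chr3:142530268-142530307, plus strand: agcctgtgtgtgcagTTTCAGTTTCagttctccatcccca
Igtp, chr11:58199507-58199546, plus strand: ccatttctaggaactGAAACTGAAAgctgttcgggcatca
Irgm2, chr11:58214898-58214937, plus strand: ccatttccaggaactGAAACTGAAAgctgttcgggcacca

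The windows of Ifit3 and Ifit1 each hold 2 separate matches, and that of Isg15 holds 3 overlapping ones. Igtp and Irgm2, which lie side by side on chromosome 11, share the same 10 motif letters and nearly all of the flanking bases. Genes with ISRE letters were found both among those with every library labelled KO above every control library (7 of the 9 matched) and among the others (11 of 21). For GAS letters the counts were 3 of 9 and 9 of 21.

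**Figure D1:**
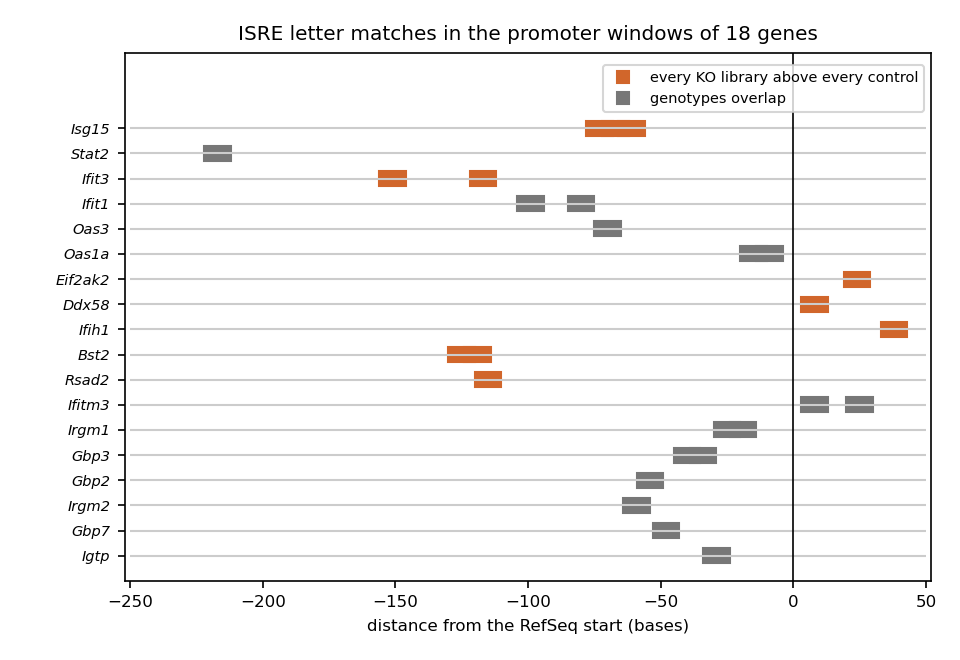
Position of each match to the ISRE letters (boxes) in the RefSeq promoter windows of the 18 genes that hold one, in bases from the transcript start (vertical line). Orange marks the 7 genes with every library labelled KO above every control library and grey the 11 whose genotypes overlap, and both kinds carry matches within 150 bases of the start.

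Most of the 37 genes were higher in the libraries labelled KO, by modest amounts, and none passed the test across all genes. A higher fitted level was found for 33 of 37 genes, against 51% of all genes tested, and a lower one for 4, the GTPase genes Gbp7, Igtp and Irgm2 and the nucleic acid sensor gene Zbp1, of which Irgm2 turned higher (0.05) when libraries were scaled by their totals only. Only Igtp was fitted lower in all alternatives. Without control 3, Gbp7, Irgm2 and Zbp1 turned higher (0.20, 0.14 and 0.51) and 36 of 37 genes were fitted higher. They also turned with limma and without control 3 and the library labelled KO 1 together, and Zbp1 with the library number as a block. The median log2 fold change of the 37 was 0.46, with a range from -0.30 to 1.08, and that of all genes tested was 0.01. With edgeR's quasi-likelihood test and Benjamini-Hochberg adjustment over all genes, 0 of the 37 rose and 0 fell, where 2.61% of all genes rose and 1.09% fell. The smallest adjusted p values were 0.0651 for Ifit3 and 0.069 for Ifit2. At an unadjusted p under 0.05 there were 12 higher and 0 lower members, against 12.3% and 13.5% of all genes. In 11 of the 37 every library labelled KO lay above every control library, and in 0 below, against 16.4% and 14.5% of all genes. In bulk tissue, fewer cells of a type and less RNA per cell cannot be told apart, and this holds for every level given here.

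The result depends on the tool and on single libraries. DESeq2 called 5 members higher, Ifit3, Ifit2, Usp18, Eif2ak2 and Bst2 (adjusted p = 0.00257, 0.00384, 0.0309, 0.0323 and 0.0402), and 7.75% of all genes. Without control 3, edgeR called 14 higher, against 11.6% of all genes. Without control 3 and the library labelled KO 1 together it called 3, Ddx58, Irf8 and Oas1a, against 6.47% of all genes. Without the library labelled KO 1 alone it called 0, 28 of 37 genes had a higher fitted level and the median log2 fold change was 0.31.

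**Figure D2:**
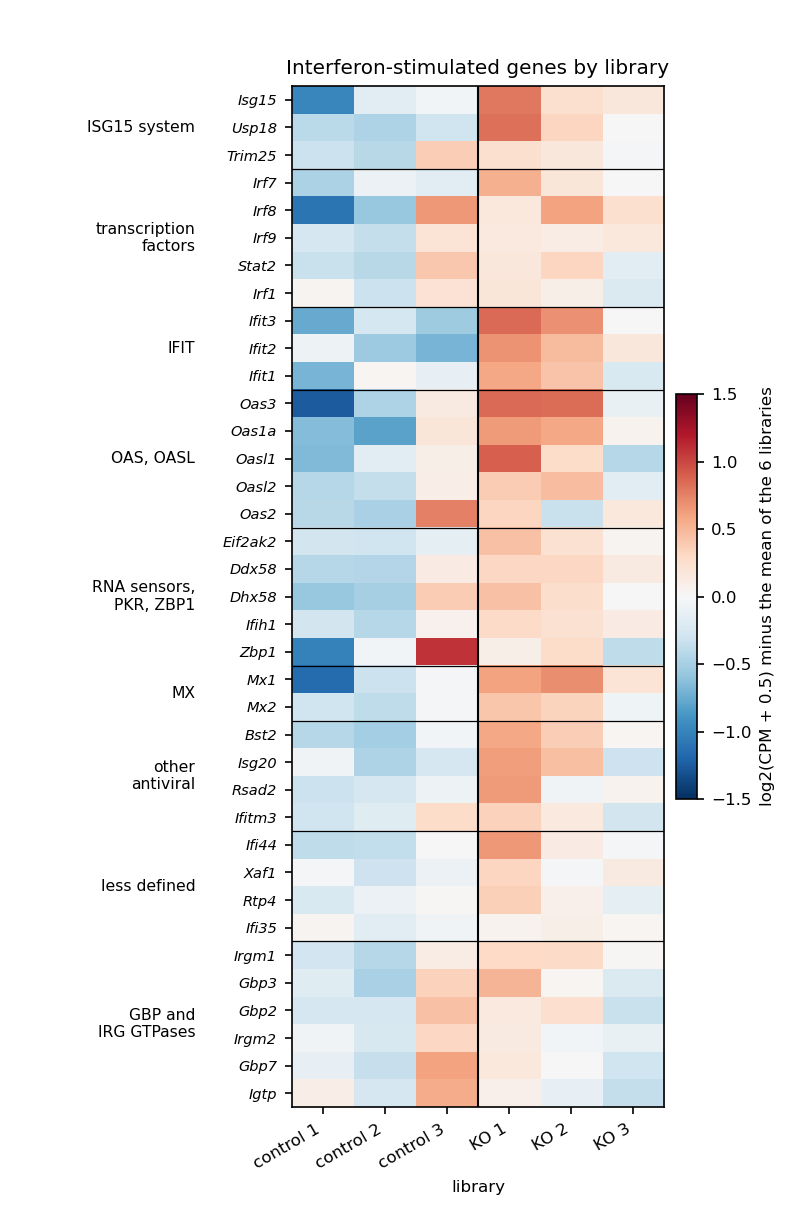
Level of each of the 37 genes (rows, by role) in each library (columns), as log2(CPM + 0.5) minus the mean of the 6 libraries, with control libraries left and libraries labelled KO right of the black line. The 3 IFIT rows run from blue in most control columns to red in the library labelled KO 1, whereas the rows of GBP and IRG GTPases are reddest in control 3 for 4 of 6 genes.

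The IFIT proteins, tetratricopeptide repeat proteins that bind viral RNA, included the genes with the smallest p values of the list. Ifit3 (gene ID 15959) measured 18.6, 26.5 and 21.9 CPM in control 1 to 3 and 57.9, 51.6 and 31.9 CPM in the libraries labelled KO 1 to 3, the order kept for all values below. Every library labelled KO was above every control library, KO 3 by the least, and the log2 fold change was 1.08 (SE 0.25, edgeR's adjusted p = 0.0651). Ifit2 (gene ID 15958) was at 51.7, 37.1 and 33.2 CPM in control and at 87.1, 75.4 and 60.9 CPM in KO. The groups did not overlap, with a log2 fold change of 0.87 (SE 0.21, edgeR's adjusted p = 0.069). Without the library labelled KO 1 the log2 fold changes were 0.90 for Ifit3 and 0.75 for Ifit2. Ifit1 (gene ID 15957), with 12.7, 21.4 and 19.2 against 31.5, 28.4 and 17.8 CPM, overlapped, since the library labelled KO 3 lay below 2 control libraries (log2 fold change 0.55, edgeR's adjusted p = 0.262). The 3 genes lie together on chromosome 19 from 34550694 to 34650009 (mm10). Their near relative Ifit3b in that family was at 8.38, 8.96 and 7.38 against 23.4, 18.2 and 10.4 CPM, and how reads shared by Ifit3 and Ifit3b were divided was not stated in the sources used here.

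ISG15 is a ubiquitin-like protein that is joined to other proteins after interferon, and USP18 is the protease that removes it and restrains the type I receptor. Isg15 (gene ID 100038882) was rare, at 1.03, 2.17 and 2.43 CPM in control and 4.69, 3.05 and 2.88 CPM in KO, the lowest library resting on 21 reads. The groups did not overlap, but the highest control and the lowest KO library were close (log2 fold change 0.91, SE 0.43, edgeR's adjusted p = 0.237). Usp18 (gene ID 24110) was at 7.99, 7.66 and 8.64 CPM in control and at 19.4, 13.5 and 10.7 CPM in KO. The 3 control libraries lay within 1 CPM of each other and all below the libraries labelled KO (log2 fold change 0.84, SE 0.24, edgeR's adjusted p = 0.0943). Trim25, a ubiquitin ligase that acts on RIG-I, overlapped, with 31.3, 29.3 and 50.6 against 46.4, 44 and 38.2 CPM, control 3 being the highest of all.

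MX proteins are dynamin-like GTPases that block virus particles. Mx1 (gene ID 17857) was at 2.21, 4.33 and 5.43 CPM in control and 8.63, 9.26 and 6.46 CPM in KO. All libraries labelled KO were higher, and the log2 fold change of 1.02 had an SE of 0.36 (edgeR's adjusted p = 0.138). Its reads were assigned to a coding and a noncoding RefSeq transcript, and the noncoding one took 82.1% of them in control 3 but 4.0% to 34.4% in the other 5 libraries. Mx2, the neighbouring gene on chromosome 16, ran from 3.27 to 4.34 CPM in control and from 4.20 to 6.04 CPM in KO. The groups overlapped. Nearly all Mx2 reads were assigned to a noncoding RefSeq transcript, 66, 68 and 101 in control and 175, 202 and 115 in KO. The coding transcript of Mx2 had 5, 0 and 6 reads in control and 0, 1 and 0 in KO. The levels of Mx1 and Mx2 are thus of transcripts, and whether working MX protein was made was not tested.

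The oligoadenylate synthetases make a short nucleotide chain on double-stranded RNA, which activates the nuclease RNase L. Oas3 (gene ID 246727) was at 2.40, 4.53 and 7.10 CPM in control and 11.9, 11.8 and 5.91 CPM in KO. Of the libraries labelled KO, that numbered 3 lay within the control range, and the log2 fold change of 1.08 was as large as that of Ifit3 but with a larger SE of 0.45 (edgeR's adjusted p = 0.191). Oas1a (gene ID 246730) was at 8.43, 7.56 and 15.3 CPM in control and 21.2, 20.5 and 14.1 CPM in KO. Here control 3 lay above the library labelled KO 3 (log2 fold change 0.83, SE 0.31, edgeR's adjusted p = 0.154), and without control 3 the log2 fold change was 1.22 and passed (edgeR's adjusted p = 0.0194).

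Oasl1, a relative without synthetase activity, was at 2.65, 3.90 and 4.78 CPM in control and 8.77, 5.48 and 3.17 CPM in KO, so the library labelled KO 3 was below 2 control libraries (log2 fold change 0.62, SE 0.43, edgeR's adjusted p = 0.4). Oasl2 was fitted 1.39-fold higher. Oas2 showed no fitted difference, with 10.7, 10.2 and 24.7 CPM in control and 18.2, 11.4 and 16.2 CPM in KO (log2 fold change 0.0019, SE 0.38). Control 3 had the most Oas2 of all, and its fitted direction turned under median-ratio scaling (-0.019). The other 4 genes of this role were fitted higher, and in 0 of the 5 were the groups free of overlap. Of all genes, 16.4% lay wholly above control and 14.5% wholly below, so a count of 0 in 5 genes says little.

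The sensors and kinase that detect viral RNA in the cytoplasm had a median log2 fold change of 0.43, and 3 of their 5 genes had every library labelled KO above control, against 16.4% of all genes. Eif2ak2 (gene ID 19106) encodes PKR, which stops translation on double-stranded RNA. Its transcripts made up 44.4, 43.8 and 49.1 CPM in control and 73.6, 63.5 and 55.4 CPM in KO. The groups did not overlap, and the log2 fold change of 0.49 had the smallest SE, 0.14, of the members named so far (edgeR's adjusted p = 0.0906). Ifih1 (gene ID 71586), which encodes MDA5, was at 35.4, 31.9 and 45.3 CPM in control and 52.5, 50.6 and 47.2 CPM in KO. Ddx58 (gene ID 230073), which encodes RIG-I, was at 40.6, 40.4 and 59.7 CPM in control and 68.1, 68.2 and 60.2 CPM in KO. In both genes the groups did not overlap, although control 3 came within 2 CPM of the library labelled KO 3 (log2 fold changes 0.42 and 0.48, edgeR's adjusted p = 0.148 and 0.149). Dhx58, which encodes the related helicase LGP2, was fitted 1.34-fold higher with overlapping groups. Zbp1, a sensor of Z-form nucleic acid, was at 2.60, 5.59 and 12.8 CPM in control and 6.14, 7.08 and 4.31 CPM in KO. Its control libraries alone spanned a wider range than all libraries labelled KO, and its log2 fold change of -0.26 had an SE of 0.55.

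Among other antiviral proteins, BST2, or tetherin, holds budding virus at the cell surface. Bst2 (gene ID 69550) was at 21.3, 20.2 and 28.1 CPM in control and 43.6, 37.4 and 29.4 CPM in KO. The groups did not overlap, by a margin of little over 1 CPM between control 3 and the library labelled KO 3 (log2 fold change 0.66, SE 0.20, edgeR's adjusted p = 0.0984). Per transcript length, Bst2 was the second most abundant member, at 29.2 ± 8.40 FPKM in control and 49.0 ± 9.66 FPKM in KO (SD, n = 3 libraries each). The most abundant was Ifitm3 (gene ID 66141), whose product hinders the fusion of viruses with endosomes, at 81.6 ± 26.3 and 95.0 ± 20.8 FPKM. In CPM it was at 46.0, 49.8 and 68.4 in control and 71.9, 62.6 and 46.5 in KO, so both groups covered nearly the same range (log2 fold change 0.14, edgeR's adjusted p = 0.721). Rsad2, or viperin, which makes a chain-terminating nucleotide, was at 38.4, 40.3 and 45.7 CPM in control and 75.1, 46.5 and 49.7 CPM in KO. The groups did not overlap, but the libraries labelled KO 2 and KO 3 lay close to control 3 (log2 fold change 0.46, edgeR's adjusted p = 0.207). The exonuclease gene Isg20 was at 4.46, 3.23 and 3.81 CPM in control and 7.42, 6.52 and 3.65 CPM in KO, with the library labelled KO 3 inside the control range.

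**Figure D3:**
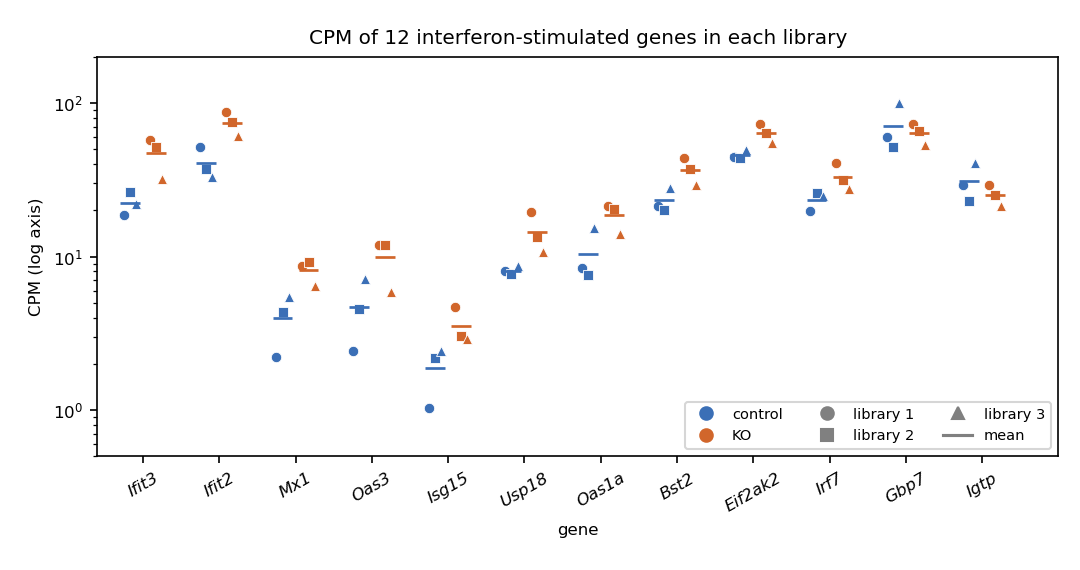
CPM on a log axis of 12 of the genes in each library (circles, squares and triangles for libraries 1, 2 and 3) with the mean of each genotype as a bar, control in blue and libraries labelled KO in orange. For Ifit3, Ifit2, Mx1, Isg15, Usp18, Bst2, Eif2ak2 and Irf7 all orange points lie above all blue ones, while for Gbp7 and Igtp the highest point is control 3.

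Of the 5 transcription factors, only Irf7 had groups that did not overlap, where 16.4% of all genes lay wholly above control and 14.5% wholly below. Irf7 (gene ID 54123), which drives further interferon production, was at 19.7, 26.1 and 24.7 CPM in control and 40.4, 31.5 and 27.7 CPM in KO. Every library labelled KO was higher, the lowest by less than 2 CPM (log2 fold change 0.50, SE 0.18, edgeR's adjusted p = 0.149). Irf9 and Stat2, partners in ISGF3, were fitted 1.19-fold and 1.14-fold higher with overlapping groups. Irf1 (gene ID 16362), a factor that both interferon types induce, was at 43.7, 33.8 and 49.5 CPM in control and 48.2, 45.1 and 36.3 CPM in KO, a log2 fold change of 0.03. Irf8, a factor of macrophages and other myeloid cells, was at 11.3, 16.5 and 39.1 CPM in control and 27.6, 37.7 and 29.3 CPM in KO. Control 3 had the most Irf8, and without it the log2 fold change went from 0.50 to 1.18 and passed (edgeR's adjusted p = 0.0198).

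Guanylate-binding proteins and immunity-related GTPases take part in the defence against parasites and bacteria that live in vacuoles. Their genes went both ways with all libraries, and the direction of several of them depended on single libraries. Their 6 genes had a median log2 fold change of -0.0007, with 3 fitted higher and 3 lower (4 and 2 by library totals only, where Irgm2 turned). The groups overlapped in all 6, where 16.4% of all genes lay wholly above control and 14.5% wholly below. Without control 3, Gbp7 (0.20) and Irgm2 (0.14) turned higher, so that 5 of the 6 were fitted higher and Igtp stayed lower. Irgm1 passed there (log2 fold change 0.57, edgeR's adjusted p = 0.0302). Irgm2 also turned higher without the library labelled KO 3, and without that labelled KO 1 Gbp2 and Gbp3 turned lower. Gbp2 (gene ID 14469) was at 43.4, 43.1 and 70.1 CPM in control and 57.2, 61.6 and 40.9 CPM in KO. Irgm1 (gene ID 15944) was at 35.5, 32.1 and 47.0 CPM in control and 53.7, 53.0 and 44.1 CPM in KO, and with a log2 fold change of 0.40 it was the highest of the 6 (edgeR's adjusted p = 0.207). Gbp7 was at 60.3, 51.6 and 99.99 CPM in control and 73.4, 65.4 and 53.5 CPM in KO, with control 3 far above the rest. Igtp was at 29.5, 23.1 and 40.9 CPM in control and 29.1, 25.2 and 21.3 CPM in KO, the lowest log2 fold change of the list (-0.30, SE 0.23, edgeR's adjusted p = 0.444). Gbp7, Gbp3 and Gbp2 lie in a row on chromosome 3 from 142530336 to 142638008, and reads shared between such close relatives may have been split between them.

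The median log2 fold change was 0.87 for the IFIT genes, 0.84 for Isg15, Usp18 and Trim25, 0.77 for the MX genes and 0.62 for the OAS and OASL genes. It was 0.54 for the antiviral genes Rsad2, Isg20, Bst2 and Ifitm3, 0.43 for the RNA sensors, PKR and ZBP1, and 0.25 for the transcription factors. These groups of 2 to 6 genes were not tested against each other. The less defined genes Ifi35, Ifi44, Rtp4 and Xaf1 had a median of 0.26, and all 4 overlapped. The largest of them was Ifi44, at 13.5, 13.6 and 17.6 CPM in control and 28.1, 19.3 and 17.4 CPM in KO, where control 3 and the library labelled KO 3 were nearly equal (log2 fold change 0.53, edgeR's adjusted p = 0.187).

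**Figure D4:**
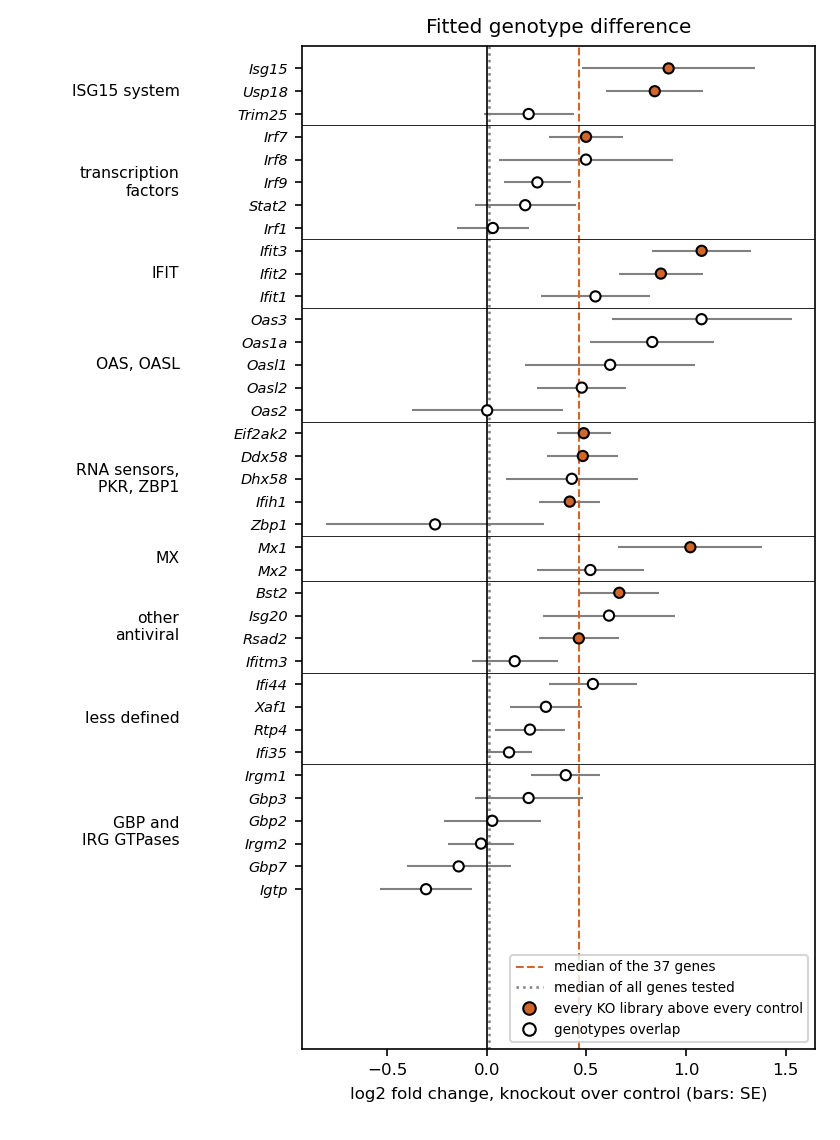
Fitted log2 fold change (KO over control) of each of the 37 genes with its SE as a bar, grouped by role. Filled points mark the 11 genes with every library labelled KO above every control library, the dashed line is the median of the 37 (0.46) and the dotted line that of all genes tested (0.01), and the 6 GTPase genes at the bottom lie on both sides of 0.

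Most of the 37 genes put the libraries of a genotype in a similar order. Among the control libraries, control 3 was the highest for 30 of 37 genes, against 38.4% of all genes. Among the libraries labelled KO, KO 1 was the highest for 28 and KO 3 the lowest for 32, against 30.1% and 34.2% of all genes. The median level of the members relative to the mean of the 6 libraries was -0.32, -0.36 and 0.09 on the log2 scale in control 1, 2 and 3, and 0.38, 0.25 and -0.01 in the libraries labelled KO 1, 2 and 3. By this measure control 3 lay above the library labelled KO 3, while all genes tested stayed between -0.02 and 0.04. Among those labelled KO, the library with the highest median of interferon-stimulated genes was thus the one with 808 Nmrk2 reads.

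Leaving out control 3 raised the number of members with every library labelled KO above every control library from 11 to 23, against 30.7% of all genes. Leaving out the library labelled KO 3 raised it to 22, against 23.3% of all genes. These were the control library most often highest and the library labelled KO most often lowest, where the count had most room to rise. Without the library labelled KO 1 it stayed at 11, against 20.7%, and without control 2 at 11, against 19.0%. Without control 1 it was 13 (19.9%) and without KO 2 it was 12 (17.7%). Without control 3 and KO 1 together it was 23, against 35.6%. Groups that do not overlap cannot come to overlap when a library is left out, so the 11 genes stay in every such count. No member lay wholly below control in any of these sets of libraries, except Igtp without control 2.

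No gene upstream of the response passed the test. Of 21 interferon ligand genes, 19 had 0 reads in all 6 libraries. The other two were Ifnz, with at most 4 reads in a library, and Ifng, with 3 reads in the library labelled KO 3 and 0 elsewhere. A count of 0 allows up to 3 reads, or 0.147 CPM in the library with the fewest. Of 9 receptor and kinase genes 0 rose and 0 fell by edgeR (median log2 fold change 0.21). At edgeR's unadjusted p under 0.05, 2 were higher and 2 lower, against 12.3% and 13.5% of all genes. The receptor chains did not move one way. Ifnar1, a chain of the type I receptor, was at 70.3, 69.8 and 101 CPM in control and 110.4, 125.8 and 104.8 CPM in KO, without overlap (log2 fold change 0.50, edgeR's adjusted p = 0.137). Ifngr2, the signalling chain of the interferon gamma receptor, was at 278, 266 and 172 CPM against 159, 141 and 188 CPM (log2 fold change -0.55, edgeR's adjusted p = 0.169). Its partner chain gene Ifngr1 went the other way without overlap, at 88.2, 108 and 125 CPM against 135, 161 and 144 CPM (log2 fold change 0.45, edgeR's adjusted p = 0.133). Il10rb, shared by the receptors of interleukin 10 and of type III interferons, was lower without overlap, at 156, 136 and 113 against 96.5, 88.9 and 104 CPM (log2 fold change -0.48, edgeR's adjusted p = 0.105).

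Of 18 nucleic acid sensing genes 0 rose and 0 fell by edgeR (median log2 fold change 0.24). At edgeR's unadjusted p under 0.05, 1 was higher and 2 lower, against 12.3% and 13.5% of all genes. The endosomal RNA receptor gene Tlr8 (log2 fold change 0.82) and the endosomal DNA receptor gene Tlr9 (0.74) were fitted higher and Mavs, the mitochondrial adaptor of RIG-I and MDA5, lower (-0.73), all with overlapping groups (edgeR's adjusted p = 0.275, 0.559 and 0.153). Mavs was highest in control 1, at 96.9 CPM, and lowest in the library labelled KO 2, at 32.2 CPM. Of 18 brakes on the pathway 0 rose and 0 fell by edgeR (median 0.05). At the same unadjusted threshold 1 brake was higher and 1 lower, against 12.3% and 13.5% of all genes. The brakes include Isg15 and Usp18, and the cytokine signalling inhibitor gene Socs3 came next (log2 fold change 0.60, SE 0.59).

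Interferon-stimulated genes outside the list were examined as a wider list. Of 67 such symbols 66 were found and tested, 49 had a higher fitted level (51% of all genes did), and the median log2 fold change was 0.21. At edgeR's unadjusted p under 0.05, 6 were higher and 2 lower, against 12.3% and 13.5% of all genes. None rose and 1 fell by edgeR. This was Psme1, a subunit of a proteasome activator, which fell from 101, 103 and 94.4 CPM in control to 67.0, 61.6 and 63.6 CPM in KO (log2 fold change -0.63, SE 0.10, edgeR's adjusted p = 0.0292). Psme1 lost this call without any single library other than control 3 (edgeR's adjusted p from 0.097 to 0.143). In 5 of the 66 every library labelled KO was above every control library (Apol9b, Ifit3b, Phf11d, Tdrd7 and Parp12) and in 3 below (Psme1, Psme2 and Pnpt1), against 16.4% and 14.5% of all genes, so neither count stands above the background. The chemokine gene Cxcl10, at 1.08, 4.29 and 1.58 CPM against 6.39, 6.69 and 3.36 CPM, had a log2 fold change of 1.24 but overlapped (edgeR's adjusted p = 0.222).

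**Figure D5:**
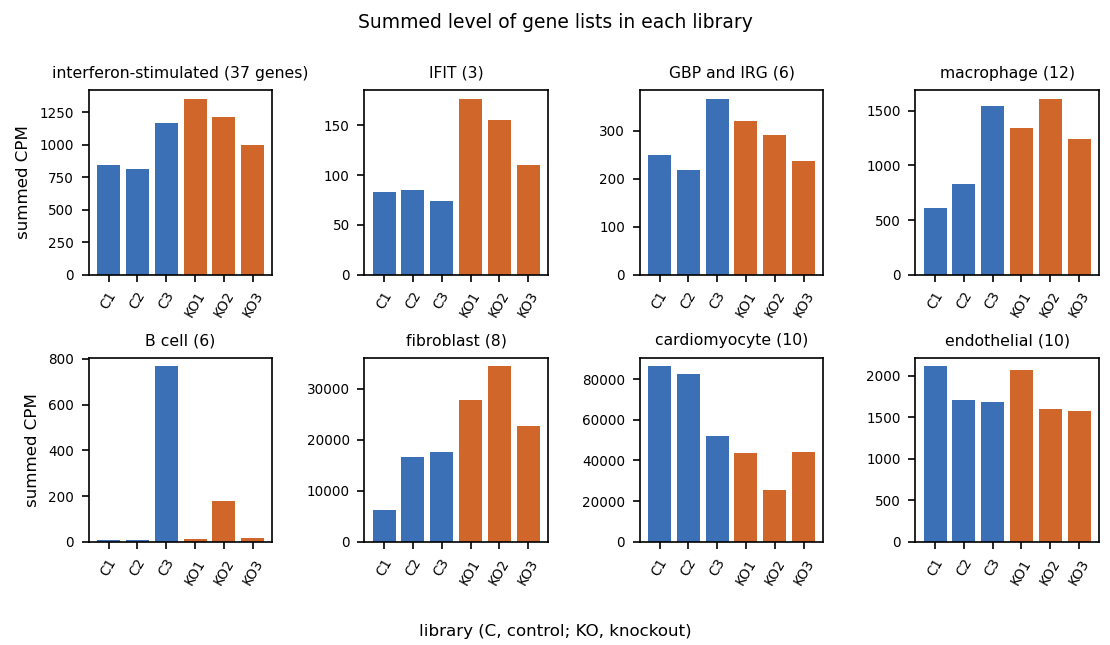
Summed CPM of the 37 genes, of their IFIT and of their GBP and IRG members, and of 5 lists of cell type markers in each library (C, control in blue, KO, libraries labelled KO in orange, number of genes in brackets). The IFIT sums labelled KO all exceed those of the control libraries, while the GBP and IRG, macrophage and B cell sums overlap, control 3 being the highest for GBP and IRG genes and B cell markers.

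Markers of several cell types moved with genotype or with single libraries, and their part in the levels above was not tested. The 37 genes summed to 844, 816 and 1168 CPM in control and 1353, 1213 and 998.5 CPM in KO. The 12 macrophage markers, none of them at 0, summed to 612, 827 and 1545 CPM in control and 1345, 1608 and 1238 CPM in KO, and 8 of them were fitted higher and 4 lower. Control 3 was thus among the libraries with most macrophage transcripts, as it was the control library with most of the 37 genes. Within that list Adgre1, which encodes F4/80, was at 50.9, 78.7 and 118 CPM in control and 174, 203 and 175 CPM in KO (log2 fold change 1.16, edgeR's adjusted p = 0.0752). Lyve1, a marker of resident macrophages and of lymphatic vessels, was at 23.7, 42.7 and 78.6 CPM in control and 17.6, 19.0 and 13.8 CPM in KO (log2 fold change -1.52, edgeR's adjusted p = 0.0861). The 2 did not overlap between genotypes and went opposite ways. Of the 12 markers, 3 lay wholly above control (Adgre1, Fcgr1 and C1qb) and 2 wholly below (Lyve1 and Cd163). The shares of all genes were 16.4% and 14.5%. The log2 fold changes were 1.06 for Fcgr1, 0.79 for C1qb and -1.17 for Cd163. Timd4 had the largest of the list, -1.84, with overlapping groups. The fractalkine receptor gene Cx3cr1 rose, from 17.6, 19.4 and 20.6 CPM to 49.6, 69.6 and 72.1 CPM (log2 fold change 1.73, SE 0.17, edgeR's adjusted p = 0.0114). It was the 1 of 6 monocyte markers that passed, and their sums overlapped (64.9 to 294 CPM in control and 214 to 874 CPM in KO). Of the 874 CPM, in the library labelled KO 2, 542 CPM were Chil3, which was at 1.13 to 37.4 CPM elsewhere. Chil3 had the largest log2 fold change of that list (5.07, SE 1.67, edgeR's adjusted p = 0.119), with overlapping groups. The library labelled KO 2 also held the most lung markers, given below. Cx3cr1 lost its call without control 1, control 2 or the library labelled KO 3 (edgeR's adjusted p = 0.0529, 0.0642 and 0.061).

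Plasmacytoid dendritic cells, which make much type I interferon, were marked by few transcripts. Siglech had at most 2.38 CPM in any library and 0 reads in control 1, and the list's larger sums came from Cox6a2, Tcf4 and the member Bst2, which other cells express too. These went opposite ways. Tcf4 (log2 fold change 0.42) and Bst2 lay wholly above control and Cox6a2 (-1.41) wholly below, as 16.4% and 14.5% of all genes did. Of the 6 markers 3 were fitted higher and 3 lower, and none passed. Markers of neutrophils and of T and NK cells summed to at most 94.0 and 23.5 CPM, highest in control 3 for both, and Ly6g had reads in control 3 alone. The 6 B cell markers summed to 767 CPM in control 3 and 179 CPM in the library labelled KO 2, and to at most 14.7 CPM in the other 4 libraries. Cardiomyocyte markers summed to 82518 to 86311 CPM in control 1 and control 2, 51993 CPM in control 3 and 25309 to 44190 CPM in KO. All 10 had a lower fitted level in KO without passing. In 7 of the 10 every library labelled KO lay below every control library, against 14.5% of all genes, and in 0 above. At edgeR's unadjusted p under 0.05, 7 were lower, against 13.5% of all genes. Fibroblast markers summed to 6275, 16651 and 17637 CPM in control and 27893, 34427 and 22643 CPM in KO, with 7 of 8 fitted higher, and endothelial markers overlapped (1682 to 2111 CPM against 1573 to 2073 CPM). The library labelled KO 2 also held 469.9 CPM of 6 lung markers, which were at most 19.0 CPM elsewhere. The 6 adipocyte markers summed to 116, 57.9 and 918 CPM in control and 237, 439 and 2.30 CPM in KO. They were thus highest in control 3 and lowest in the library labelled KO 3. The 6 dendritic cell markers were all fitted higher, and 2 lay wholly above control, against 16.4% of all genes. None of them passed, and their sums overlapped.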

How the data were processed

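Libraries were prepared from total RNA with a kit that keeps strand (per the labels' protocols). The submitters' processing notes name Bowtie2, HISAT2 and mm10. The authors deposited 1 table of 36780 RefSeq transcripts with whole-number read counts, FPKM values and, as another property, transcript lengths for 6 libraries. The sources used here do not name a counting program or say whether strand was used. Columns were assigned to genotypes by the initials in their names.

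Counts were summed per symbol and tested with edgeR 4.0.16 under R 4.3.3 (TMM factors, filterByExpr with a minimum count of 10, quasi-likelihood test, Benjamini-Hochberg adjustment over all genes, threshold 0.05). Genes past it are said to have risen or fallen. The method was checked on simulated counts. Alternatives used DESeq2 1.42.0, limma 3.58.1 on log2(FPKM + 1), other scalings and filters, a block for the library number, single transcripts and fits without each library. Leaving out control 3 and the library labelled KO 1 together was added after the data had been seen. Same-numbered libraries did not deviate together (correlations of 0.29, -0.30 and -0.34 across genes), so the numbers were not taken as pairs. The strongest correlations were between libraries of different numbers. They were 0.56 for control 3 with the library labelled KO 2 and -0.49 for control 1 with that same library. Libraries of a genotype differed beyond counting error (median chi-square of 3.78 to 17.3 per gene).

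The members, the other lists and the rules were chosen with earlier results of these data known. Values in every library were given for the 12 members with the largest fold change, the 5 with the highest FPKM and members whose genotypes did not overlap, up to 20 in all, and for up to 3 genes of each other list. Rsad2, Gbp7, Igtp, Zbp1, Oas2, Trim25, Irf8 and others were added once their values were known. A gene outside the 37 is not reported here and was left out of its list. Motif letters were searched in RefSeq promoter windows (GRCm38.p6).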

Additional observations from a re-analysis of the deposited data

How the results depend on the processing

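With edgeR the number of members that rose was 0 with all libraries, and 1 (Ifit2) when libraries were scaled by their total only, which moved the median log2 fold change of all genes to 0.11. It was 1 (Ifit2) with limma on log2(FPKM + 1), 5 with DESeq2, 3 without control 3 and the library labelled KO 1 together, and 0 to 14 when a single library was left out, 14 without control 3 and 0 without any other. No member fell in any setting. Among all genes, 378 risers became 1116 with DESeq2, 939 without control 3 and KO 1, and 3 to 1719 without a single library, and 157 fallers became 1329, 1182 and 0 to 1909, and 335 with limma. With the library number as a replicate block, 6 genes rose and 0 fell, and no member passed. The median log2 fold change of the members stayed between 0.31 and 0.57 in all 15 other settings. Of the 37 members 29 kept their direction in all of them and 8 did not. Oas2 became -0.019 with median-ratio scaling, -0.018 with DESeq2, -0.093 with the most abundant transcript alone, and lay from -0.22 to 0.55 without single libraries. Irgm2 became 0.053 with totals only, 0.069 without control 3 and KO 1, 0.081 with limma, and -0.15 to 0.14 without single libraries. Zbp1 became 0.015 with the replicate block, 0.48 without control 3 and KO 1, 0.034 with limma, and -0.65 to 0.51 without single libraries. Gbp7 became 0.087 and 0.0035 in the latter 2 settings, and -0.32 to 0.20. Gbp3 became -0.098 with 1 transcript, and -0.023 to 0.47. Gbp2, Irf1 and Ifitm3 lay from -0.092 to 0.30, -0.11 to 0.16 and -0.0051 to 0.33 without single libraries. Nmrk2 lay from -6.29 to 0.35 without single libraries and reached -6.62 without control 3 and KO 1 (edgeR's adjusted p = 0.0272). The cause of these changes was not tested. Isg15 rested on 21 to 136 reads per library, which limits its precision.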
